A study of Mus musculus with 2 samples.

Results

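The genes described here encode the E2F transcription factors and the pocket proteins that bind them. They were chosen by gene symbol (E2f1, E2f2, E2f3, E2f4, E2f6, E2f7, E2f8, Rb1, Rbl1 and Rbl2), with earlier results of these arrays known, and all 10 were found among 18193 genes that had a probe set named for them alone. They were read by 21 of 34945 such probe sets, and 0 further probe sets carried the symbol of a member beside other symbols. The RNA came from the spleens of C57BL/6 mice bearing hepatocellular carcinoma, a liver cancer. One group, labelled CD45- cells, was sorted for absence of the white cell marker CD45 and for presence of Ter119, which marks red cells and their later precursors, and is called Ter119+ here. The other group, labelled CD45+ cells, was sorted from the same animals as the control. All cells thus came from tumour-bearing mice, and there was 1 array per group. How the tumours were made, the number and age of the mice, whether animals were pooled, and whether Ter119 was used in the CD45+ gate are not given in the sources used here.

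E2F factors bind gene promoters, most of them as pairs with a DP protein, and switch the genes of DNA synthesis and cell division on or off. The pocket proteins, the retinoblastoma protein Rb1 and its relatives p107 (Rbl1) and p130 (Rbl2), bind E2F factors and recruit repressors until cyclin-dependent kinases phosphorylate them. E2f1, E2f2 and E2f3 are the classical activators, E2f4 and E2f6 act mainly as repressors, and E2f7 and E2f8 repress without a DP partner. In red cell formation, where rapid divisions end in cell cycle exit and loss of the nucleus, loss of Rb1 or of E2f4 in mice is known to disturb maturation.

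A probe set's intensity is the brightness of 1 group of short probes, on a linear scale as deposited, and levels of different probe sets are not comparable. A value counted as measured when it lay above 101.1, the 95th percentile, over both arrays, of 80 probe sets that read olfactory or vomeronasal receptor genes. That percentile was 127 in the Ter119+ array and 73.5 in the CD45+ array. Differences are log2 intensity in Ter119+ cells minus that in CD45+ cells, and a difference of 2 on this scale (4-fold) was the size rule. Values not above 101.1 were set to it, which makes the difference a bound, written "at least". Where a gene had several probe sets, its brightest by mean log2 value stood for it. With 1 array per group no difference could be set against a spread between replicates, and no p-value is given. Over 3608 genes with several probe sets measured in both arrays, the pooled SD of the difference between probe sets of a gene was 0.66, which is not replicate error.

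The labelled cell types matched their markers. All 11 measured red cell precursor markers were higher in the Ter119+ array by 4-fold or more, from 14.6-fold for the transferrin receptor Tfrc to 126-fold for the ankyrin Ank1. Of 42 white cell markers in 7 lists, 40 were lower by 4-fold or more and 2 lay between the limits, while 30 exceeded the detection level in the Ter119+ array. The summed intensity of the red cell markers in the CD45+ array was 2.77% of that in the Ter119+ array, and that of the 8 general white cell markers in the Ter119+ array was 2.44% of that in the CD45+ array. All 6 megakaryocyte and platelet markers were higher in the Ter119+ array too (median 4.57, summed intensity 34822 against 1642). Of 7 liver tumour markers only 3 were measured, and the brightest of them in either array had an intensity of 125.5.

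Promoter stretches of 5 members are printed here. Each holds 1 or more of the words by which E2F factors or the MuvB complex are known to recognise genes. The window of Rbl2 and a second window of E2f2, which also held such a word, are not printed. Both strands of each RefSeq promoter window (GRCm38.p6, 250 bases before to 50 after a start) were searched for the E2F words TTTCCCGC, TTTGGCGC, TTTCGCGC and TTTGCCGC, and for TTTGAA and TTCGAA, the words of the cell cycle homology region (CHR) bound by MuvB. The second CHR word reads the same on both strands, and E2F words may overlap each other. The capitals mark the matched words, and a word on the reverse strand appears as its reverse complement. Each stretch runs 5′ to 3′ along the gene's strand, and positions are counted from the start, with -1 as the base before it. The stretches were chr13:29986064-29986163 (minus strand) for E2f3, chr10:110745199-110745298 (plus strand) for E2f7, chr2:157204535-157204634 (minus strand) for Rbl1, chr4:136172294-136172323 (plus strand) for E2f2 and chr7:48881597-48881696 (minus strand) for E2f8.
E2f3: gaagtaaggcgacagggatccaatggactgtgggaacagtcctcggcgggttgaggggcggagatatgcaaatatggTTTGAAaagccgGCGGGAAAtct
E2f7: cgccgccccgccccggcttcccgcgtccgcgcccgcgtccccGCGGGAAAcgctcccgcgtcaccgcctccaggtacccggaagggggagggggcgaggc
Rbl1: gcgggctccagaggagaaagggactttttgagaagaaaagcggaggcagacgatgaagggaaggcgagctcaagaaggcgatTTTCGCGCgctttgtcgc
E2f2: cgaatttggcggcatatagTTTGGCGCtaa
E2f8: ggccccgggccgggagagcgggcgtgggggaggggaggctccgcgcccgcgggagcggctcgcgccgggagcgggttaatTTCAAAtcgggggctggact

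The E2f3 window held an E2F word with its first base at -11 and a CHR word at -23. The Rbl1 window held an E2F word at -18, and the E2f7 window held one at -198. In E2f2 the E2F word lay 40 bases past one start, and a second window of the gene held a CHR word at -31. The E2f8 window held no E2F word and a CHR word at -20, and that of Rbl2 a CHR word at -201. In the windows of E2f1 and E2f6 none of these words was found. Promoter windows were matched for 8 members, which leaves E2f4 and Rb1 without one here. Thus 4 of 8 members with a window held an E2F word, against 704 of 27025 genes (2.60%) and 2.26% of 32851 windows in the whole table. A CHR word was found for 4 of 8 members and for 21.7% of all genes. A match describes the letters only.

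By the size rule 6 of the 10 genes were higher in the Ter119+ cells (E2f1, E2f2, E2f4, E2f7, E2f8 and Rb1), 1 was lower (Rbl2), and E2f3, E2f6 and Rbl1 lay between the limits. Their median difference was 2.62. Over 11793 genes measured in at least 1 array, 8.31% passed the rule as higher, 16.8% passed it as lower, and the median was -0.26. The genes were chosen with this contrast known, so nothing is read from their share. By the probe set that stood for each, all 7 E2F genes were brighter in the Ter119+ array, although the other E2f3 probe set was dimmer there. Of the pocket protein genes, Rb1 and Rbl1 were brighter there and Rbl2 was dimmer. The share of all measured genes brighter in that array was not counted, and nothing is read from these directions. In sorted bulk RNA, a difference in the number of cells that carry a transcript and a difference in its amount per cell cannot be told apart.

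**Figure D1:**
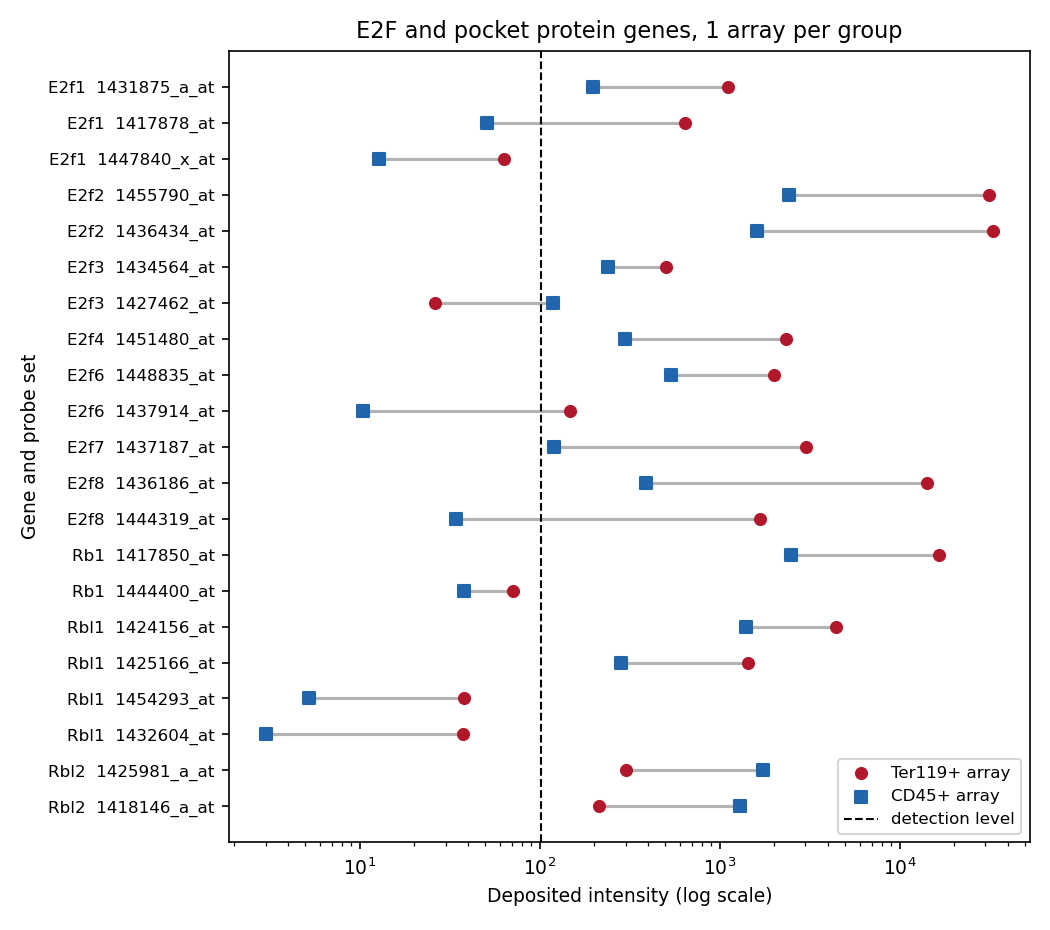
Deposited intensity on a log axis for each of the 21 probe sets of the members, with a circle for the Ter119+ array, a square for the CD45+ array and a dashed line at the detection level of 101.1. The circle lies right of the square for 18 probe sets, and left of it for both Rbl2 probe sets and 1 of E2f3.

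Of the 21 probe sets, 13 were measured in both arrays, 3 only in the Ter119+ array, 1 only in the CD45+ array and 4 in neither. Among the 17 measured, 10 passed the size rule as higher in the Ter119+ array and 2 as lower. Over all 21447 measured probe sets with 1 symbol, 7.71% were higher and 14.5% lower by this rule.

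Among the activators, E2f2 had the largest difference. Its probe set 1455790_at read 31318 in the Ter119+ array and 2430 in the CD45+ array, a 12.9-fold difference (3.69 on the log2 scale). The other, 1436434_at, read 33194 against 1621, or 20.5-fold. Both probe sets thus placed E2f2 far higher in the Ter119+ cells, and E2f2 was also well above the detection level in the CD45+ cells. Of all measured genes, 2.87% had a higher difference than E2f2. Whether the brightest spots were saturated is not known, since the table has no column for it.

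E2f1, the activator best known for driving entry into DNA synthesis, had 1 probe set measured in both arrays. That probe set, 1431875_a_at, read 1115 against 196.9, 5.66-fold higher in the Ter119+ array. Probe set 1417878_at read 641.7 against 50.9, the latter under the detection level, which gives a difference of at least 6.35-fold. A further probe set, 1447840_x_at, was under the level in both arrays (63.4 and 12.8). With the mean of all 3 probe sets the CD45+ value fell under the level, so that the difference was at least 1.82, which does not settle on which side of 4-fold it lay.

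For E2f3, the remaining activator, only 1 of 2 probe sets was measured in both arrays. The brighter, 1434564_at, read 503.6 in the Ter119+ array and 238.6 in the CD45+ array, 2.11-fold higher. The dimmer, 1427462_at, read 26.1 against 118.7. Only the CD45+ value was above the common level, and it also exceeded the 73.5 of its own array. It lay under the 127 of the Ter119+ array, so against that level this probe set gave no direction. With the mean of both log2 values, which takes 26.1 as it stands although it is under the level, the difference was -0.55 in place of 1.08. With values under the level set to it before averaging, an alternative chosen after seeing the data, it was 0.42 or below. The direction of E2f3 thus rests on its brighter probe set.

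Of the repressors that bind DNA with a DP partner, E2f4 was read by 1 probe set. It had 2333 in the Ter119+ array and 296.7 in the CD45+ array, 7.86-fold higher (2.98 on the log2 scale). E2f4 is the E2F factor that most often pairs with p107 and p130. E2f6, which represses without binding a pocket protein, read 2005 against 534.1 by its brighter probe set, 3.75-fold higher and just under the size rule. Its other probe set read 147.7 against 10.5, a difference of at least 1.46-fold. Both probe sets of E2f6 had the same direction. Its difference of 1.91 became 2.26 after quantile normalization and 2.69 after median centring, both above the size rule. Median centring also moved the median of all measured genes, from -0.26 to 0.52. With the mean of probe sets the difference of E2f6 was at least 2.43, and at least 1.23 with values set to the level before averaging.

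The atypical repressors E2f7 and E2f8 had the largest differences of the family. E2f8 read 14249 in the Ter119+ array and 387.8 in the CD45+ array by probe set 1436186_at, 36.7-fold higher (5.20 on the log2 scale). By its second probe set, 1444319_at, it read 1677 against 34.4, at least 16.6-fold higher. Only 0.71% of all measured genes had a higher difference than E2f8. E2f7 was read by 1 probe set, with 3020 against 120.1, 25.1-fold higher (4.65 on the log2 scale). Its CD45+ value lay just above the detection level, and 1.32% of measured genes had a higher difference. In the CD45+ array the level of E2f8 was 2.72% of its Ter119+ level and that of E2f7 3.98%, beside 2.77% for the summed red cell markers, whereas the other 5 E2F genes stood between 7.76% (E2f2) and 47.4% (E2f3). What red cell precursors within the CD45+ sort contributed to these values was not tested.

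The 3 pocket proteins differed from each other in direction. Rb1, the retinoblastoma protein, read 16499 in the Ter119+ array and 2487 in the CD45+ array by probe set 1417850_at, 6.63-fold higher (2.73 on the log2 scale). Its second probe set, 1444400_at, was under the level in both arrays (71.3 and 38.1), and the mean of both, which includes this one, gave a difference of 1.82, under the size rule. Rbl1, which encodes p107 and is found mainly in cycling cells, read 4437 against 1404 by 1424156_at, 3.16-fold higher. Its probe set 1425166_at read 1440 against 282.7, 5.09-fold higher. The 2 dimmest probe sets of Rbl1 were measured in neither array, with 37.9 and 37.4 against 5.2 and 3. Rbl1 thus had 1 direction in its 2 measured probe sets, which lay on both sides of the size rule.

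Rbl2, which encodes p130 and is known for holding resting cells out of division, was the only member that was lower. Probe set 1425981_a_at read 300.7 in the Ter119+ array and 1751 in the CD45+ array, 5.82-fold lower (-2.54 on the log2 scale). Probe set 1418146_a_at read 212.5 against 1300, 6.12-fold lower. The 2 probe sets agreed closely, and both Ter119+ values were above the detection level. Of all measured genes, 11.3% had a lower difference. The Ter119+ level of Rbl2 was 17.2% of its CD45+ level, against 2.44% for the summed general white cell markers and 1.59% to 9.08% over the 7 white cell lists. The part of remaining white cells in the Rbl2 signal was not tested. After median centring the difference of Rbl2 was -1.76, short of the size rule. That setting moved the median of all measured genes from -0.26 to 0.52.

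**Figure D2:**
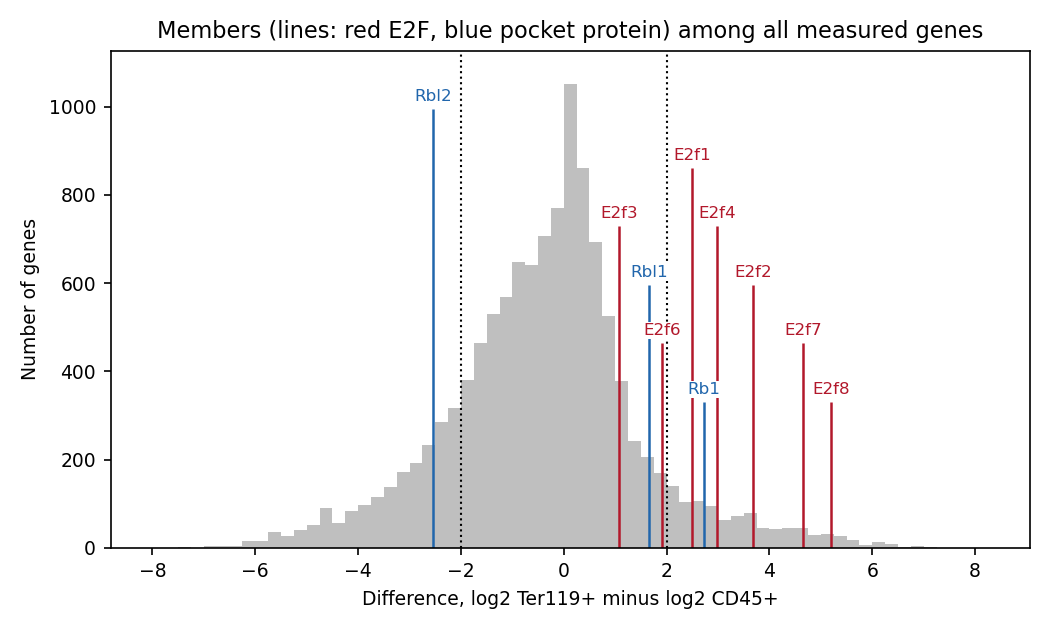
Histogram of the difference between the arrays for all 11793 measured genes (x axis, log2 Ter119+ minus log2 CD45+; y axis, number of genes), with bounds included. Vertical lines mark the members, red for E2F genes and blue for pocket proteins, their heights have no meaning, and dotted lines mark 4-fold; E2f8 lies farthest right at 5.20 and Rbl2 alone lies left of -2.

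The DP partners and the E2F gene outside the chosen set were read as well. Tfdp2, which encodes the partner DP2, was higher by all 4 of its probe sets. They read 26963 against 733.5, 28563 against 566.3, 11836 against 454.3 and 3650 against 149, between 24.5-fold and 50.4-fold higher in the Ter119+ array. Tfdp1, which encodes DP1, read 6785 against 1623 by its only probe set, 4.18-fold higher, and its difference of 2.06 became 1.95 after quantile normalization. The difference of Tfdp2 was thus larger than that of Tfdp1 on these arrays, which was not tested. E2f5, a second p130-binding repressor, had no single direction, with 1265 against 747.3 by 1 probe set, 187.8 against 594.9 by another and 152.8 against 608.6 by the last.

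p107 or p130, E2f4 and a DP protein assemble with the MuvB core into a repressor complex, and MuvB later joins B-Myb (Mybl2) and Foxm1 to activate the genes of mitosis. Of 8 measured genes of this list, 3 passed 4-fold as higher and 0 as lower (median 1.76). Over all measured genes 8.31% passed it as higher and 16.8% as lower. This list and those that follow were chosen with earlier results of these arrays known. Mybl2, itself a classical E2F target, read 4942 in the Ter119+ array against 260.4, 19.0-fold higher. Foxm1 read 1035 against 183, or 5.66-fold higher, and the MuvB subunit Lin54 2672 against 641.2, or 4.17-fold higher. The MuvB subunit Lin9 read 732 against 191.2, just under the size rule at 3.83-fold. With the mean of probe sets only 1 of these genes passed 4-fold, and after median centring 5 did.

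Genes that E2F factors are known to control stood beside the members in the Ter119+ cells. The lists in this paragraph were chosen with earlier results of these arrays known, so nothing is read from their shares. Over all measured genes 8.31% were higher and 16.8% lower by 4-fold or more, with a median of -0.26. Of 32 measured genes with a role at the entry into DNA synthesis, 26 passed 4-fold as higher and 0 as lower (median 2.78). The leading genes were the replication licensing factor Cdc6 (11279 against 343.7), the ribonucleotide reductase subunit Rrm2 (59173 against 2094), the origin recognition subunit Orc1 (3820 against 146.6) and the thymidine kinase Tk1 (14830 against 662.7). The uracil DNA glycosylase Ung, with 408.9 against 462.4, was the only one of the 32 that was brighter in the CD45+ array. All 24 measured genes of mitosis that MuvB complexes are known to bind were higher, by 7.74-fold or more (median 4.48). Among the leading genes were Ube2c (39.8-fold), Tpx2 (39.2-fold), the phosphatase Cdc25c (3906 against 73.5, the latter under the level, at least 38.6-fold) and the centromere protein Cenpf (9111 against 266.9). An E2F word lay in a promoter window of 12 of 29 genes of the DNA synthesis list and of 1 of 20 genes of the mitosis list. Over all genes with a window this share was 2.60%. A CHR word was found for 4 of 29 and for 15 of 20, against 21.7% of all genes with a window.

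**Figure D3:**
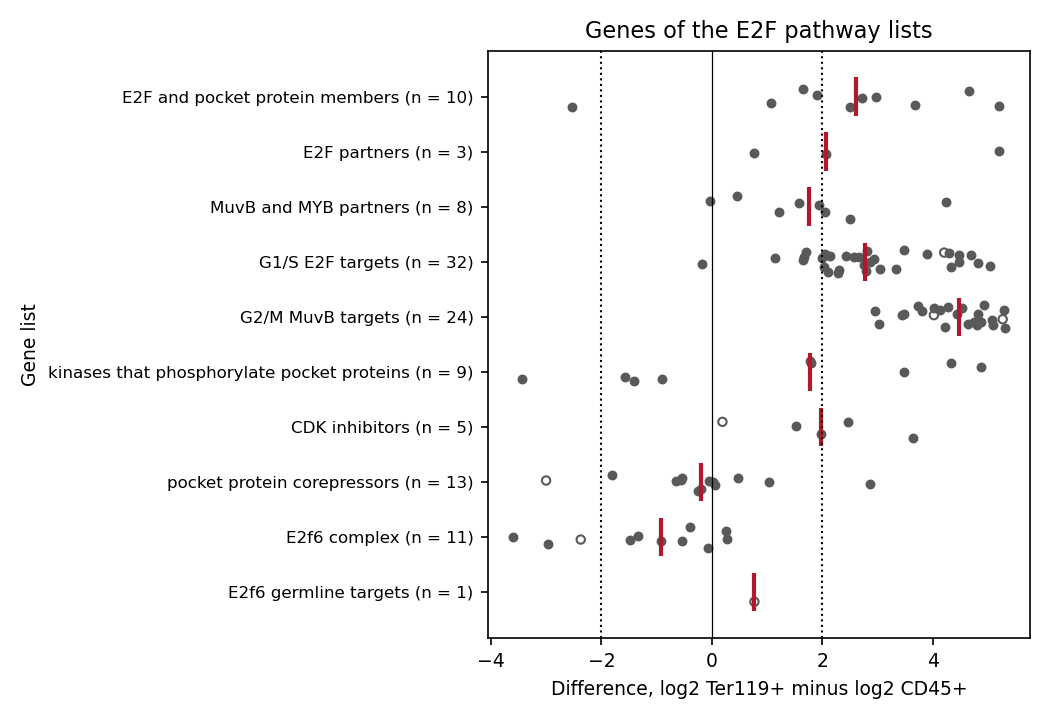
Difference between the arrays (x axis, log2 Ter119+ minus log2 CD45+) of each measured gene in the members and in 9 lists of related genes (y axis), with open circles for bounds, red bars for medians and dotted lines at 4-fold. The lists of DNA synthesis and mitosis genes lie mostly right of 2 (medians 2.78 and 4.48), the corepressors around 0 (median -0.20) and the E2f6 complex left of it (median -0.92).

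The kinases that release E2F factors from pocket proteins, read together with their cyclins, were not uniform. Of 9 genes, 3 passed 4-fold as higher, against 8.31% of all measured genes, and 1 as lower, against 16.8%. The higher ones were cyclin A2 (Ccna2, 27919 against 944.9), cyclin E2 (Ccne2, 6447 against 320.4) and cyclin E1 (Ccne1, 6079 against 545.3). The only lower one was cyclin D2 (Ccnd2, 481.1 against 5198, 10.8-fold). The genes past 4-fold were thus all cyclins. The kinase genes Cdk2 (3032 against 877.6), Cdk4 and Cdk6 lay between the limits. Of the inhibitors of these kinases, Cdkn2c (p18) read 10446 against 837.5, 12.5-fold higher, and Cdkn2d (p19) 21840 against 3938, 5.55-fold higher. Cdkn1a (1198 against 301.9) and Cdkn1b (6200 against 2158) were brighter in Ter119+ cells by less than 4-fold, and 2 of 7 inhibitors were measured in neither array.

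Genes of the corepressors that pocket proteins recruit showed mostly small differences. Of 13 measured, 1 was higher by 4-fold or more, against 8.31% of all measured genes, and 1 lower, against 16.8%. The other 11 lay between, and the median was -0.20, close to the -0.26 of all measured genes. The higher one was the histone methyltransferase Kmt5c (3680 against 507.5), and the lower one the remodelling ATPase Smarca2 (63.6, under the level, against 810.2, a difference of -2.67 or below against the 95th percentile of the Ter119+ array). Kmt5b, its relative (428.7 against 1499), and the histone-binding Rbbp7 (19917 against 9738) lay between the limits.

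E2f6 is known to join a chromatin complex with Polycomb proteins. Of 11 measured genes of that complex, 0 passed 4-fold as higher, against 8.31% of all measured genes, and 3 as lower, against 16.8%. The other 8 lay between the limits, and the median was -0.92, against -0.26 over all measured genes. The count of lower genes of the complex was 2 under 5 of 8 alternatives, where Ring1 or Mga fell short. The histone methyltransferase Ehmt2 read 246.3 in the Ter119+ array against 2994, 12.2-fold lower. Mga, the DNA-binding scaffold of the complex, read 295.6 against 2316, 7.83-fold lower. Another of its probe sets read 130.5 against 721.4, 5.53-fold lower. A further one read 122 against 106, of which the 122 lay under the 95th percentile of the Ter119+ array. Ring1, a Polycomb ubiquitin ligase, read 25.1 against 524.4, a difference of -2.04 or below against the 95th percentile of the Ter119+ array. Its partner Rnf2 read 766.8 against 2134, within 4-fold. Of 4 germline genes on the array that E2f6 is known to silence in body cells, only Stag3 was above the level, with 172.8 in the Ter119+ array and 17.7, under the level, in the other.

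**Figure D4:**
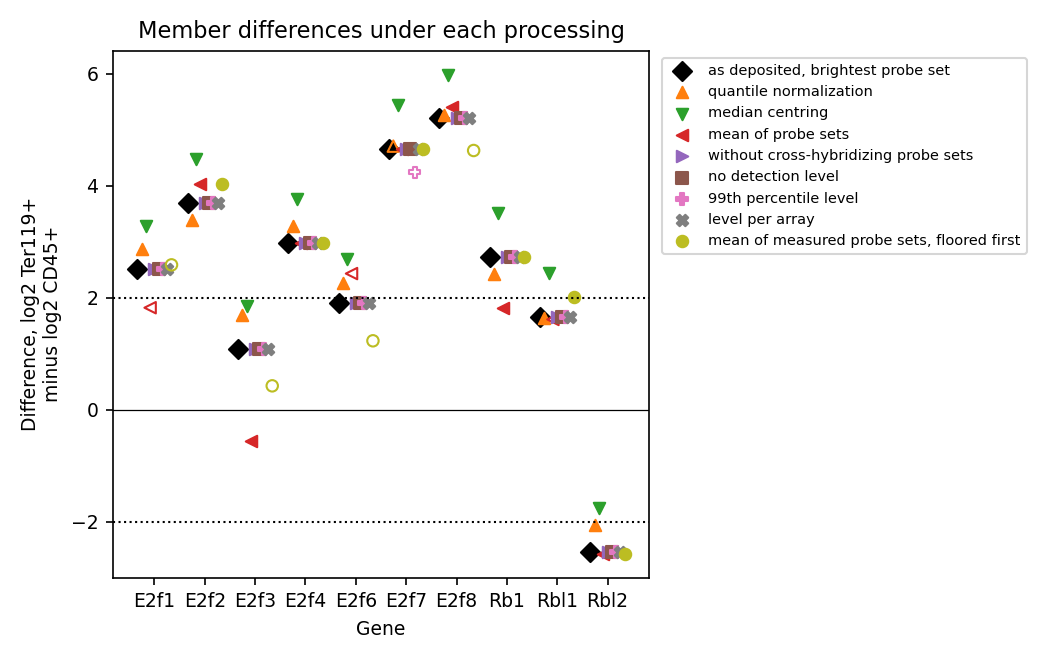
Difference between the arrays (y axis, log2 Ter119+ minus log2 CD45+) of each member (x axis) as reported (black diamonds) and under 8 other ways of processing the values, with open symbols for bounds and dotted lines at 4-fold. E2f2, E2f4, E2f7 and E2f8 stay above 2 throughout, E2f3 crosses 0 with the mean of probe sets (-0.55, which includes a value under the detection level), and Rbl2 runs from -2.58 to -1.76.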

How the data were processed

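Total RNA of both sorted samples was labelled with a 3' in vitro transcription kit, per the labels' protocols, and hybridised to 1 Affymetrix array each. The deposited table gives 1 linear intensity per probe set and array. The submitters' processing notes name GCRMA and Partek 6.6 without saying what each made, so the scaling between arrays, detection and saturation are not settled. Of 45037 probe sets, 34945 had 1 gene symbol in GEO's platform annotation, 932 had several and 9160 had none. By Entrez identifier 34741 matched the RefSeq table (GRCm38.p6), with 0 symbols changed. Intensities were taken as deposited, with no pseudocount.

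The members, gene lists and size rule were chosen with earlier results of these data known. The text names every member with each probe set, and of each list the 4 genes with the largest difference and any that passed 4-fold against the list's majority direction. Some further genes were named after their values were seen (Ung, Ccnd3, Cdk2, Cdk4 and Cdk6). Promoter windows came from RefSeq. The planned protein comparison was not made, since no protein table was used here. Scripts ran under Python 3.11.15 with pandas 2.3.3, numpy 2.4.6 and, for figures, matplotlib 3.10.9, and were tested on simulated data. Alternatives were quantile normalization, median centring over measured probe sets, the mean of probe sets, probe sets not marked as cross-hybridizing, no detection level, the 99th percentile (160.4) and a level per array. The mean difference of measured probe sets, with values set to the level first, was added after seeing the data.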

Additional observations from a re-analysis of the deposited data

How the results depend on the processing

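E2f2, E2f4, E2f7 and E2f8 kept their direction and stayed above 4-fold under all 8 alternatives, as did Tfdp2. E2f4 and E2f7 each had 1 probe set, so neither mean nor the cross-hybridization filter could change them. Median centring raised every difference alike, and both E2f4 values lay above every level used. For E2f4, only quantile normalization could thus have lowered the difference. The members' count of higher genes stayed within 1.5 times of 6. The count of lower members went from 1 to 0 with median centring, where Rbl2 had -1.76. With the mean of probe sets E2f3 went from 1.08 to -0.55, a value that takes an intensity under the level as it stands, and E2f5 from 0.76 to -0.97, also with values set to the level before averaging (-0.97). Rbl1 passed 4-fold with median centring (2.44) and, narrowly, with that averaging, and was at least 1.61 with the mean of probe sets. Ring1 fell short of 4-fold with quantile normalization, median centring and the 99th percentile, and Mga with both means. Median centring moved the median difference of all measured genes from -0.26 to 0.52 and their counts from 980 higher and 1979 lower to 1642 and 1116, so that higher genes made up 59.5% of the calls in place of 33.1%. Quantile normalization gave 42.1% and no detection level 46.7% (2885 higher and 3293 lower). Median centring also gave 5 higher genes of MuvB and its partners, 5 of the cyclins and kinases and 4 of the inhibitors, in place of 3, 3 and 2. Quantile normalization left 1 higher E2F partner in place of 2. The mean of probe sets left 1 higher gene of MuvB and its partners and gave 2 lower genes of the cyclins and kinases. Without a detection level 4 inhibitors were higher, and of the germline genes 2 were higher and 1 lower. No paired analysis was possible because each group had 1 array. The lack of replicates limits every value here, and probe sets near the level are bounds only.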

Other observations

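Over the array as a whole, 452 measured genes had an E2F word in a promoter window, and 55 of them (12.2%) passed 4-fold as higher in Ter119+ cells, against 8.36% of the 9570 measured genes with a window. Their median difference was 0.12, against -0.27. Of the 452, 10.8% passed it as lower, against 16.6%. The 452 include the 4 members with an E2F word, and genes of the lists above were not left out. Those members and lists were chosen with this contrast known. Of measured genes with a CHR word, 12.4% were higher and 16.7% lower, the latter close to the 16.6% of all. Their median difference was -0.07. These shares describe the letters of the windows and the 2 arrays, and no test was made.

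Cyclin D3 (Ccnd3) had probe sets of opposite direction. The brightest read 15018 in the Ter119+ array against 4293, and another read 1221 against 321.6. The last went the other way, with 160.1 against 2258. Cdk4 and Cdk6, the kinases that pair with D cyclins, were both dimmer in the Ter119+ array, at 706.8 against 1879 and 421.8 against 1249 by the probe sets that stood for them, each within 4-fold. Another probe set of each was lower by more, with 396.4 against 1648 for Cdk4 and 316 against 1580 for Cdk6, both past 4-fold.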
